A study of Sus scrofa with 10 samples.

Results

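The genes of the YAP, TAZ and TEAD transcription complex and of the Hippo kinases above it were followed in pig right ventricle under pressure overload. The set is defined by 10 gene symbols: YAP1, WWTR1 (which encodes TAZ), TEAD1, TEAD3, TEAD4, LATS1, LATS2, STK3 (which encodes the kinase MST2), AMOTL2 and VGLL4. Each matched exactly 1 row, so 10 of the 12378 genes with a symbol are described, in a table with 3260 further genes that have none. No gene of the deposited table was left out of the main comparison for low values. Right ventricular biopsies came from 5 pigs labelled CTEPH (chronic thromboembolic pulmonary hypertension, in which obstructed lung arteries raise the pressure against which the right ventricle pumps) and from 5 Sham pigs, and each pig gave 1 RNA library. The CTEPH libraries are s1, s3, s4, s5 and s9, and the Sham libraries are s2, s6, s7, s8 and s10. The labels state no way of inducing the disease, no duration, no strain, sex or age, and no genetic change or drug.

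Hippo signalling is a chain of kinases that restrains growth. MST1 and MST2 activate LATS1 and LATS2, which phosphorylate the coactivators YAP and TAZ and keep them in the cytoplasm, where they are degraded. When the chain is quiet, YAP and TAZ enter the nucleus, bind TEAD factors on DNA and switch on genes such as CCN1, CCN2 and ANKRD1. In the heart the pathway is known for limiting cardiomyocyte division after birth and for answering to stretch and stiffness. Much of this control acts on phosphorylation and location of the proteins, which RNA levels do not measure.

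The log2 differences of the set (CTEPH minus Sham) ran from -0.45 for AMOTL2 to 0.60 for TEAD4. None of the 10 genes passed an adjusted p of 0.05 (limma, adjusted over all genes with the Benjamini-Hochberg method), where 4.62% of all genes did, 2.83% with higher and 1.79% with lower values in CTEPH. At an unadjusted p under 0.05 there were 3 of 10, TEAD4 and WWTR1 with higher and AMOTL2 with lower means in CTEPH, where 20.3% of all genes were under that value. In 0 of 10 genes did the 2 groups of libraries lie fully apart, against 6.57% of all genes (3.7% with CTEPH higher and 2.87% with CTEPH lower). The median log2 difference (CTEPH minus Sham) was -0.05 over the 10 genes and -0.03 over all genes, with 4 positive and 6 negative. Without regard to sign the median size was 0.191 over the set and 0.25 over all genes. All levels here are log2 values on the deposited scale, which is not per length, so levels of different genes are not ranked against each other.

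**Figure D1:**
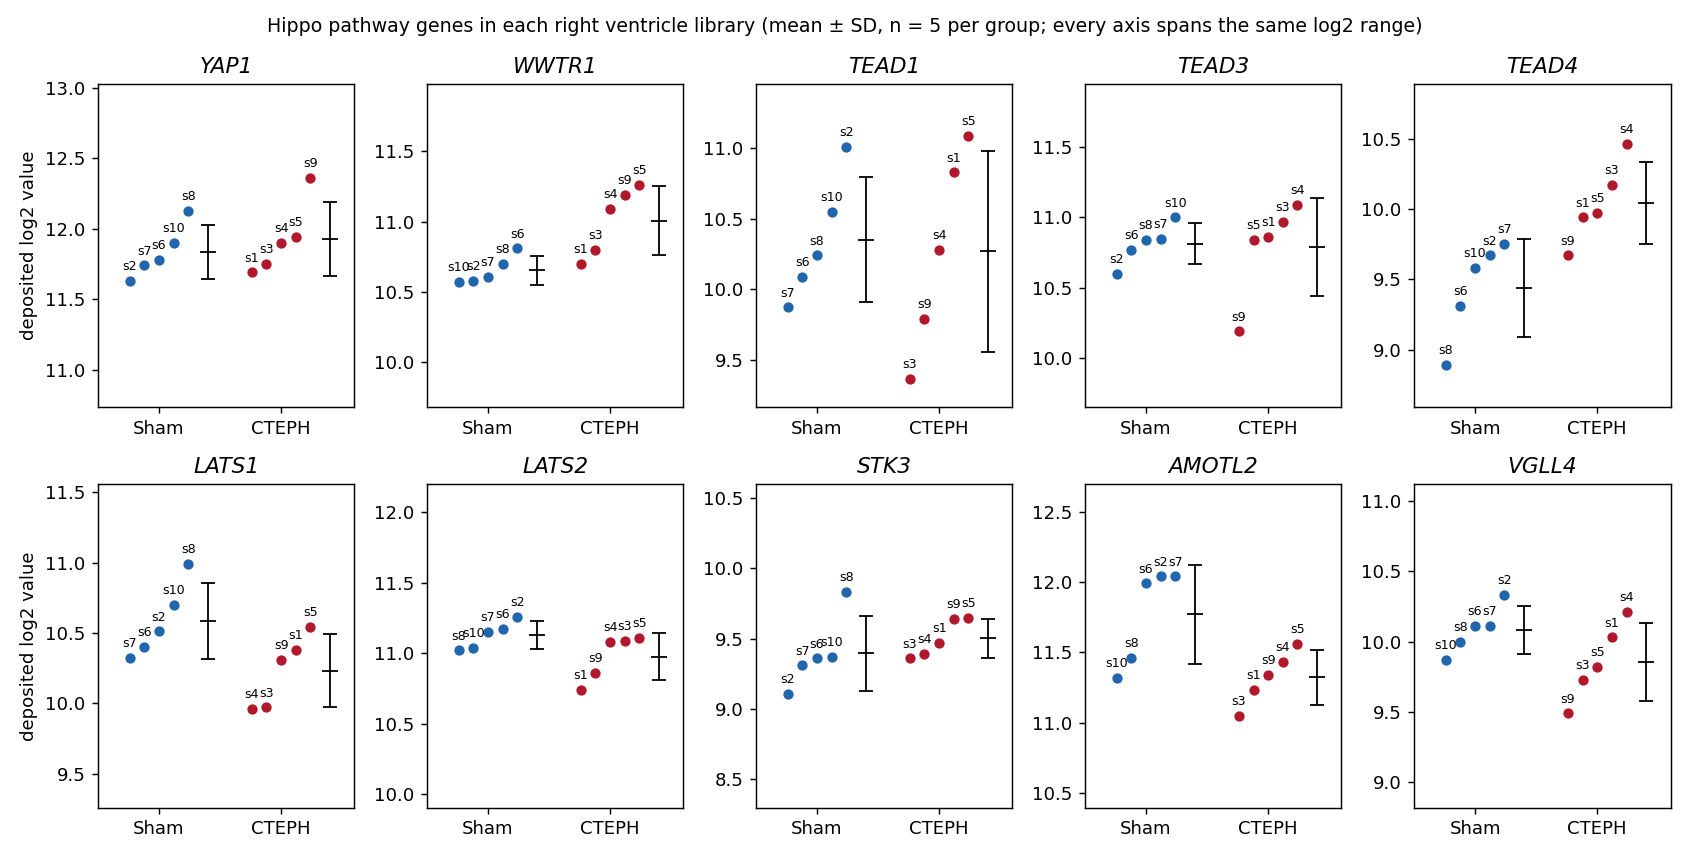
Deposited log2 value (vertical axis, log2 scale) of the 10 genes in each library, Sham in blue and CTEPH in red, ordered by value within a group, with the group mean ± SD beside the points. The groups overlap in every panel: TEAD4 and WWTR1 sit higher in CTEPH, AMOTL2 sits lower, and TEAD1 spreads widest.

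All 10 genes were well measured. Their values ran from 8.89 to 12.36, and the gene with the lowest mean still lay above 52.3% of genes. Relative depth, read from the low counts that the table preserves, ran from 0.708 in s9 to 1.59 in s6, with 0.708 to 1.55 in CTEPH and 0.755 to 1.59 in Sham. Heart muscle markers were abundant: the 10 measured cardiomyocyte markers had mean log2 values of 15.60 to 19.32. Of these only MYL2 was called, where 4.62% of all genes were, and it rose. At an unadjusted p under 0.05 (limma) there were 3, where 20.3% of all genes were under that value. MYL2 had a higher mean in CTEPH, and CKM and MYBPC3 had lower means. The 10 markers had 5 positive and 5 negative differences. Their level in a library, taken as the average log2 deviation from each gene's own mean, ran from -0.134 to 0.153 in CTEPH and from -0.298 to 0.124 in Sham, the lowest being Sham library s8. Levels of other marker lists below are on that same scale. These are bulk samples, in which fewer cells of a type and less RNA per cell cannot be told apart.

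YAP1, the coactivator on which the pathway converges (ENSSSCG00000031429; chromosome 9, 32811629 to 32924926 of Sscrofa11.1), was at log2 values of 11.69 in s1, 11.75 in s3, 11.90 in s4, 11.94 in s5 and 12.36 in s9. In the Sham libraries it was at 11.63 in s2, 11.78 in s6, 11.74 in s7, 12.13 in s8 and 11.90 in s10. The groups shared nearly the same range, with s9 above every Sham library and the other 4 CTEPH libraries inside the Sham range. CTEPH averaged 11.93 ± 0.26 and Sham 11.83 ± 0.19 (SD, n = 5 pigs each). The log2 difference was 0.09 ± 0.15 (SE of the fit), with a 95% interval of -0.23 to 0.42 (limma, adjusted p = 0.784). On the linear scale that interval covers 0.851-fold to 1.33-fold, so a change of 1.5-fold in either direction lies outside it. Without library s9 the difference was -0.02, of opposite sign.

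WWTR1, whose product TAZ is the close relative of YAP (ENSSSCG00000011704; chromosome 13, 89742980 to 89889547), was at 10.70 in s1, 10.80 in s3, 11.09 in s4, 11.26 in s5 and 11.19 in s9. Sham libraries held 10.58 in s2, 10.81 in s6, 10.61 in s7, 10.70 in s8 and 10.57 in s10. Libraries s4, s5 and s9 lay above every Sham library, while s1 and s3 lay within the Sham range. The difference was 0.35 ± 0.14 on the log2 scale, with an interval of 0.05 to 0.66 (adjusted p = 0.173). All 5 CTEPH values exceeded the Sham mean, and an exact permutation test of this gene alone gave p = 0.0397 (two-sided, unadjusted). A log2 difference of 0.53 would have been needed for a call at this gene's error.

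TAZ minus YAP was compared within each library, because both coactivators share the upstream kinases. The log2 value of WWTR1 minus that of YAP1 averaged -0.92 ± 0.18 over the CTEPH pigs and -1.18 ± 0.19 over the Sham pigs (SD, n = 5 each). It reached from -1.16 to -0.68 in CTEPH and from -1.43 to -0.97 in Sham, so the groups overlapped. The shift of 0.26 did not pass (two-sided exact permutation p = 0.0714, adjusted p = 0.179 over the 5 differences between relatives that were tested).

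TEAD4, one of the DNA-binding partners of YAP and TAZ (ENSSSCG00000000736; chromosome 5, 67130392 to 67167579), had the largest difference of the set. Its log2 value was 9.94 in s1, 10.17 in s3, 10.46 in s4, 9.97 in s5 and 9.67 in s9. The Sham values were 9.67 in s2, 9.31 in s6, 9.75 in s7, 8.89 in s8 and 9.58 in s10. Libraries s1, s3, s4 and s5 lay above every Sham library, and s9 fell among the highest Sham libraries. The difference was 0.60 ± 0.20, or 1.52-fold with an interval of 1.13-fold to 2.04-fold (adjusted p = 0.103), and the exact permutation p of this gene alone was 0.0238 (two-sided, unadjusted). Leaving out single libraries moved it between 0.46 (without s8, the lowest library) and 0.70 (without s9), with adjusted p of 0.0601 to 0.216. Among dividing-cell markers 7 of 7 rose, where 2.83% of all genes did, with levels of 0.685 to 2.411 in CTEPH and -1.844 to -1.496 in Sham. Of 3 measured epicardial and mesothelial markers 1 rose, KRT8, and their level was 0.363 to 1.544 in CTEPH and -1.593 to 0.038 in Sham. Each of the 3 overlapped between the groups by itself. Their log2 differences were 3.53 for KRT8, 1.64 for UPK1B and 0.33 for WT1 (limma, adjusted p = 0.0326, 0.0856 and 0.594). Of 3 measured atrial markers 0 passed in limma, and all 3 had an unadjusted p under 0.05, where 20.3% of all genes did. SLN and MYL4 had higher and NR2F2 had lower means in CTEPH. The level of the atrial markers was -0.321 to 1.349 in CTEPH and -1.757 to 0.798 in Sham. Mean levels also differed (CTEPH minus Sham) for endothelial (-0.436), macrophage (0.433) and Schwann cell markers (-0.765), with overlapping groups. The part of these lists in the TEAD4 difference was not tested.

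TEAD3, which is best known from placenta and muscle (ENSSSCG00000001544; chromosome 7, 31337890 to 31351452), was level. It was at 10.86 in s1, 10.97 in s3, 11.09 in s4, 10.84 in s5 and 10.19 in s9, against 10.60, 10.77, 10.85, 10.84 and 11.00 in Sham libraries s2, s6, s7, s8 and s10. Library s9 stood 0.65 below the next CTEPH library, and the other 4 CTEPH libraries lay in or just above the Sham range. The log2 difference was -0.02 ± 0.17, with an interval of -0.38 to 0.34 (adjusted p = 0.964). Its sign turned positive without s9 (0.13) and without s10 (0.03).

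TEAD1, the TEAD member long known for driving muscle genes through MCAT elements (ENSSSCG00000013399; chromosome 2, 46396490 to 46670619), varied more between pigs than any other gene of the set. Its log2 value was 10.83 in s1, 9.36 in s3, 10.28 in s4, 11.09 in s5 and 9.79 in s9. In Sham it was 11.01 in s2, 10.09 in s6, 9.87 in s7, 10.24 in s8 and 10.55 in s10. The highest and the lowest library, s5 and s3, were both CTEPH and lay 1.74 apart. Its difference between the groups was -0.08 ± 0.31, with a wide interval of -0.76 to 0.60 (adjusted p = 0.919). A change of 2.27-fold would have been needed for a call, and the sign turned without s2 (0.08), s3 (0.15) or s9 (0.04).

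The within-library difference between TEAD4 and TEAD3 was higher in CTEPH. The log2 value of TEAD4 minus that of TEAD3 was -0.92 in s1, -0.80 in s3, -0.63 in s4, -0.87 in s5 and -0.52 in s9, and it was -0.93 in s2, -1.46 in s6, -1.10 in s7, -1.96 in s8 and -1.42 in s10. Every CTEPH value lay above every Sham value, though s1 and s2 nearly touch. In s9, where the difference was highest, TEAD4 itself was at 9.67, inside its Sham range of 8.89 to 9.75. TEAD3 in s9 was at 10.19, its lowest value in any library, so the place of s9 reflects low TEAD3. The means of the difference were -0.75 ± 0.17 in CTEPH and -1.37 ± 0.39 in Sham, a shift of 0.62. A two-sided exact permutation gave p = 0.00794, which is the lowest possible with 5 pigs against 5. The adjusted p was 0.0397 over the 5 differences, a value that rests on how many differences were listed. No pair with TEAD2 was among them. The call ended when any CTEPH library was left out, with adjusted p of 0.0794 (without s1, s3, s5 or s9) and 0.119 (without s4). It held without each Sham library. The groups stayed fully apart without any single library, and p moves in coarser steps with fewer libraries. These calls therefore do not show which pigs carry the shift. TEAD4 minus TEAD1 shifted by 0.68 and TEAD3 minus TEAD1 by 0.06, neither of which passed (exact permutation, adjusted p = 0.212 and 0.889). TEAD2, the other family member, was at 11.24 ± 0.22 in CTEPH and 11.42 ± 0.17 in Sham, a difference of -0.19 ± 0.14 (adjusted p = 0.501).

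**Figure D2:**
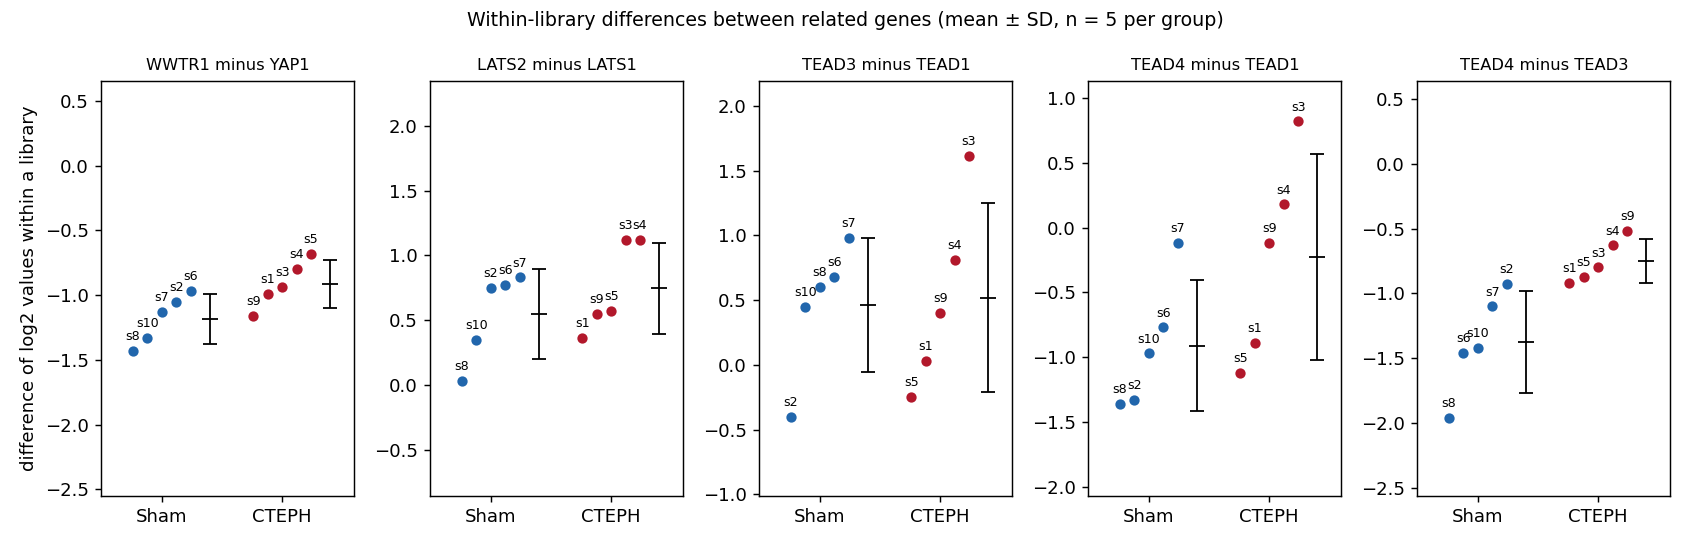
Difference of 2 deposited log2 values within each library (vertical axis, log2) for the 5 pairs of related genes, Sham in blue and CTEPH in red, ordered by value, with mean ± SD at the side. Only in the panel of TEAD4 minus TEAD3 do the groups not overlap, with Sham from -1.96 to -0.93 and CTEPH from -0.92 to -0.52.

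LATS1, a kinase that phosphorylates YAP and TAZ directly (ENSSSCG00000004106; chromosome 1, 16274955 to 16320980), was at 10.38 in s1, 9.97 in s3, 9.96 in s4, 10.54 in s5 and 10.31 in s9. The Sham libraries held 10.51 in s2, 10.40 in s6, 10.32 in s7, 10.99 in s8 and 10.70 in s10. Libraries s3, s4 and s9 lay below every Sham library, s9 only just, and all 5 CTEPH values were under the Sham mean. The difference of -0.35 ± 0.17 had an interval of -0.72 to 0.01 (adjusted p = 0.262; exact permutation p = 0.0873, two-sided and unadjusted). Without s8 it was -0.25.

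LATS2, the paralogous kinase and itself a known target of YAP (ENSSSCG00000036326; chromosome 11, 1225523 to 1265970), was among the steadiest genes at its level. Its CTEPH values were 10.74 in s1, 11.09 in s3, 11.08 in s4, 11.11 in s5 and 10.86 in s9, and its Sham values were 11.26, 11.17, 11.15, 11.02 and 11.04 in s2, s6, s7, s8 and s10. The 10 libraries spanned 0.52 on the log2 scale, with s1 and s9 lowest. Its difference was -0.15 ± 0.12, or 0.898-fold with an interval of 0.748-fold to 1.08-fold (adjusted p = 0.524). LATS2 minus LATS1 shifted by 0.20 between the groups and did not pass (exact permutation p = 0.381, adjusted p = 0.476 over 5 differences).

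STK3, the MST2 kinase at the head of the chain (ENSSSCG00000006074; chromosome 4, 38011802 to 38306777), ran from 9.36 to 9.65 in CTEPH and from 9.11 to 9.83 in Sham. The CTEPH range lay inside the Sham range. The difference was 0.10 ± 0.16 with an interval of -0.24 to 0.44 (adjusted p = 0.758). Its partner kinase gene STK4, which encodes MST1, was at 0.04 ± 0.18 (adjusted p = 0.933).

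AMOTL2, an angiomotin-family protein that binds YAP at cell junctions and is also a known YAP target (ENSSSCG00000011643; chromosome 13, 75490936 to 75507360), had the most negative difference of the set. It was at 11.23 in s1, 11.05 in s3, 11.43 in s4, 11.56 in s5 and 11.34 in s9. Among Sham libraries, s2, s6 and s7 stood high at 12.04, 11.99 and 12.04, while s8 and s10 were at 11.46 and 11.32, inside the CTEPH range. The difference of -0.45 ± 0.17 had an interval of -0.82 to -0.07 (adjusted p = 0.164; exact permutation p = 0.0635, two-sided and unadjusted). Its relatives AMOT and AMOTL1 were at -0.19 ± 0.19 and -0.43 ± 0.25 (adjusted p = 0.639 and 0.367). AMOTL2 is known for its work in endothelial junctions, and all 8 measured endothelial markers had negative differences, with a median of -0.38. Over all genes 4.62% were called, and of these markers 1 was, TEK. Their level ran from -0.372 to -0.025 in CTEPH and from -0.148 to 0.574 in Sham, and none was near 0, the lowest value being 8.78. In the Sham libraries that level was -0.148 in s2, 0.452 in s6, 0.216 in s7, 0.574 in s8 and -0.003 in s10, so s6 and s7 were high in both, s8 was high in the markers only, and s2 was high in AMOTL2 only. The part of endothelial RNA in the AMOTL2 difference was not tested.

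VGLL4, which competes with YAP and TAZ for TEAD (ENSSSCG00000030581; chromosome 13, 67698082 to 67873119), ran from 9.49 to 10.21 in CTEPH and from 9.87 to 10.33 in Sham. Libraries s3, s5 and s9 were below every Sham library, and s1 and s4 were within the Sham range. The difference was -0.23 ± 0.16, with an interval of -0.57 to 0.12 (adjusted p = 0.467). VGLL3, a relative that also binds TEAD, was weakly expressed and variable, from 4.87 to 7.28 in CTEPH and from 5.54 to 6.84 in Sham (difference -0.25 ± 0.42, adjusted p = 0.788).

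The error of each gene sets what could have been seen. For 5 of the 10 genes, YAP1, TEAD3, LATS2, STK3 and VGLL4, the whole 95% interval lay inside a 1.5-fold change in either direction, as it did for 31.5% of all genes. For 9 of 10, all except TEAD4, it lay inside a 2-fold change, against 67.1% of all genes. These all-gene shares include the more variable genes at low levels and are not matched to the level of the set. The log2 difference needed for a call ran from 0.46 for LATS2 to 1.18 for TEAD1, taking as the limit the largest unadjusted p that was called, 0.00228.

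**Figure D3:**
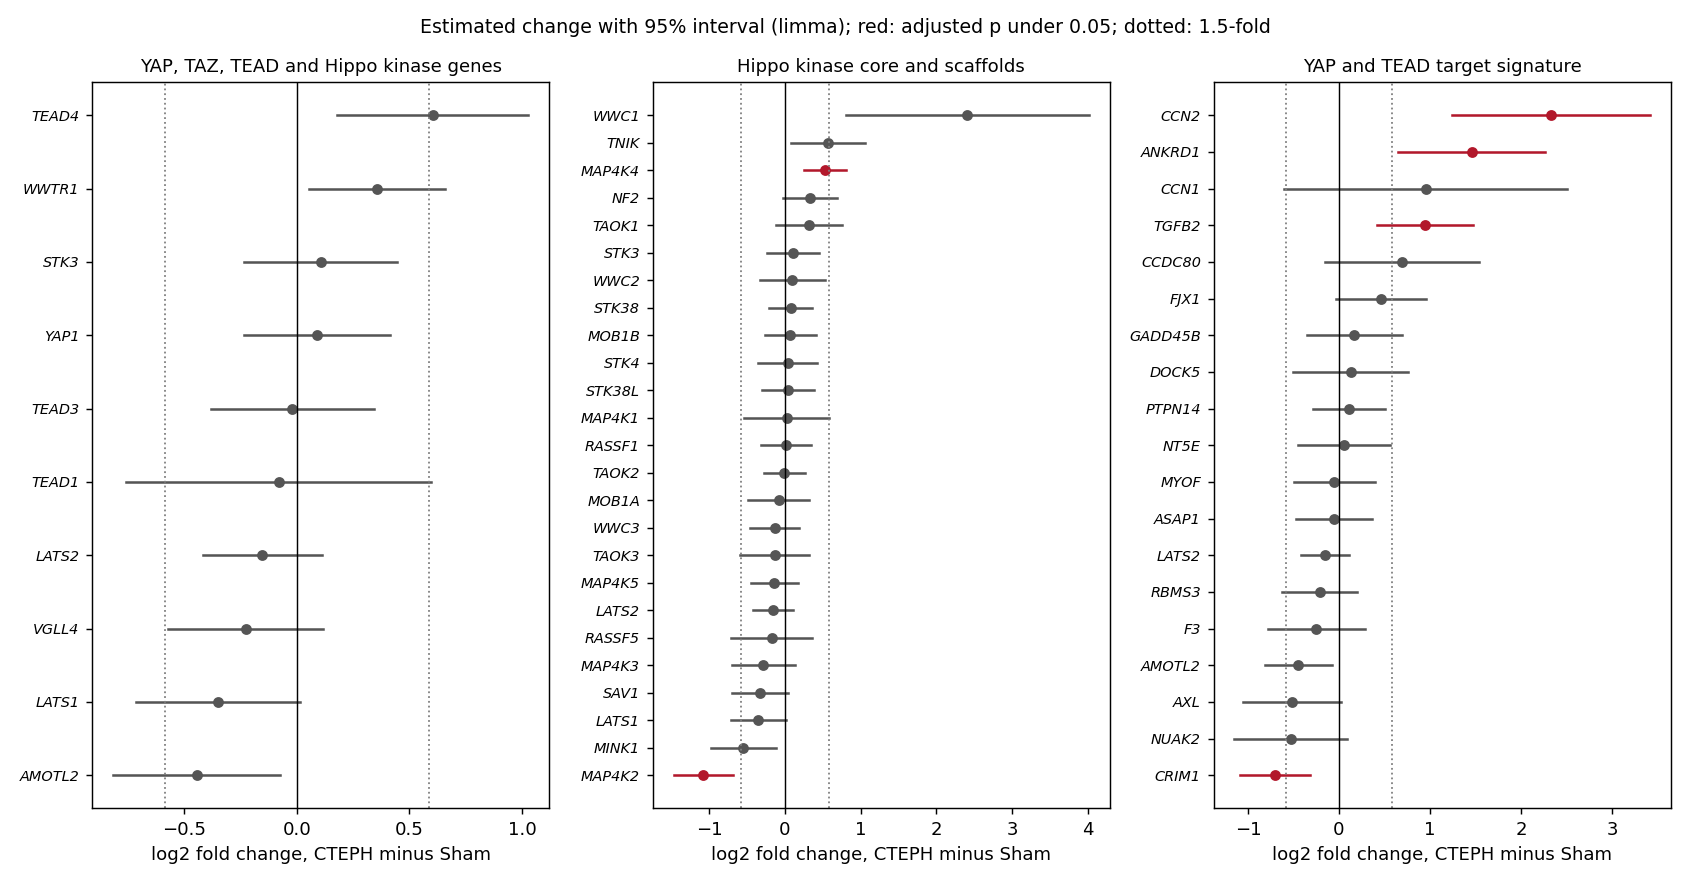
Log2 fold change, CTEPH minus Sham (horizontal axis; the 3 panels have different scales), with the 95% interval of the limma fit, for the 10 genes, for the kinase core with its scaffolds and for the YAP and TEAD target signature. Red marks an adjusted p under 0.05 and dotted lines mark 1.5-fold: none of the 10 genes is red, while MAP4K4 and MAP4K2 are red in the second panel and CCN2, ANKRD1, TGFB2 and CRIM1 in the third.

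Spread between pigs of a group differed among the 10 genes. The within-group SD of TEAD1 was 0.596, above that of 94.7% of the 2655 genes whose mean lay within 0.5 log2 of its own. LATS2 had an SD of 0.136, above only 5.92% of 2247 such genes. STK3 (0.21) and WWTR1 (0.189) also lay low, at 18.6% and 21.2%, and the other 6 were between 30.6% (VGLL4) and 60.7% (TEAD4). No library carried the extremes throughout: s2, s4, s5 and s8 each held the highest value of 2 genes, and s2, s3 and s9 each held the lowest value of 2.

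**Figure D4:**
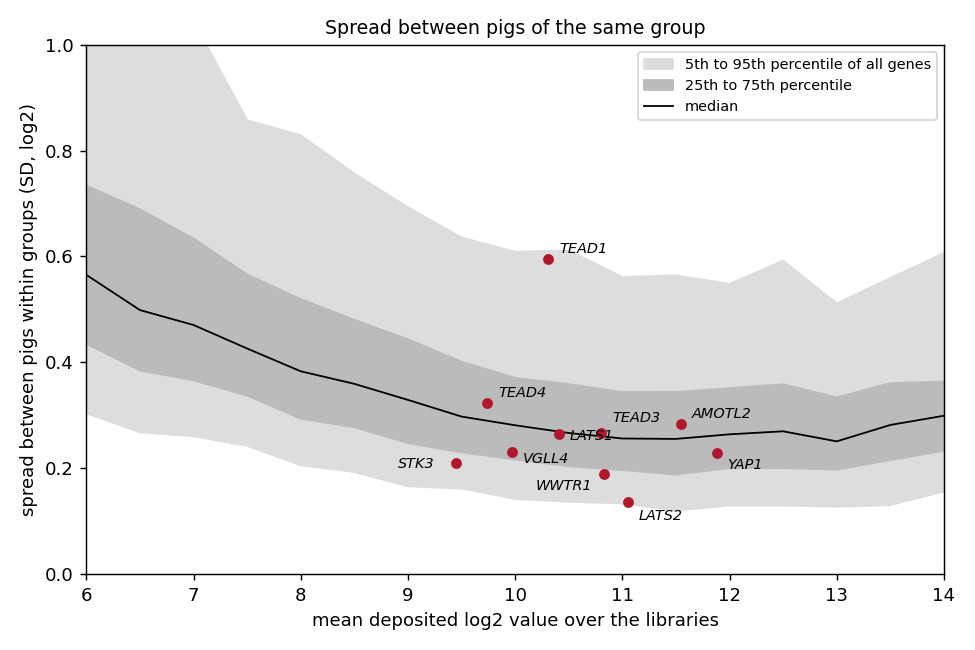
Within-group SD over the libraries (vertical axis, log2) against the mean deposited log2 value (horizontal axis) for the 10 genes as red points, over bands that give the percentiles of all genes by level. TEAD1 lies near the upper edge at 0.596 and LATS2 near the lower edge at 0.136.

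Genes whose values ran most like those of the 2 coactivators were found by the root mean square difference of mean-centred log2 values over the 10 libraries. For YAP1 they were TMEM68 (0.0705), PNRC2 (0.0728) and TMEM230 (0.0732), none of which passed (adjusted p = 0.803, 0.883 and 0.683). For WWTR1 they were SRPK1 (0.0999), MAD2L2 (0.11) and CCDC50 (0.12), with adjusted p = 0.295, 0.298 and 0.122. For TEAD1, added after its spread was seen, the nearest was DDR2, a collagen receptor, at 0.227.

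The rest of the kinase chain held 2 calls. Of 25 measured genes of the kinase core and its scaffolds, LATS1, LATS2 and STK3 included, 1 rose and 1 fell. Over all genes 4.62% were called, and the median log2 difference of the list was 0.02. MAP4K4, a kinase that can activate LATS in parallel to MST, was at 11.67, 12.10, 12.19, 11.91 and 11.74 in s1, s3, s4, s5 and s9 and at 11.27 to 11.46 in Sham. Every CTEPH library was above every Sham library, and the gene rose by 0.53 ± 0.13 (adjusted p = 0.0361). MAP4K2, a kinase of the same family, was at 7.95 to 8.61 in CTEPH and 9.12 to 9.77 in Sham, again fully apart, and fell by 1.08 ± 0.18 on the log2 scale (adjusted p = 0.00476). MAP4K2 kept its call without any single library, whereas MAP4K4 lost it without s2, s3, s4, s5, s6, s7, s8 or s10 (adjusted p up to 0.0966).

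No other core component passed, although the list held 3 calls with library weights and 3 without s1. The largest difference of the list was that of WWC1, which encodes the scaffold KIBRA and is named here after its values were seen. It was weakly expressed, with a mean of 6.16 ± 1.55 over the CTEPH pigs and 3.75 ± 1.22 over the Sham pigs (SD, n = 5 each), and its log2 difference of 2.41 ± 0.74 had an adjusted p of 0.0853 in limma with overlapping groups. The scaffold SAV1, which couples MST to LATS, was at -0.33 ± 0.17 (adjusted p = 0.31), and the LATS cofactors MOB1A and MOB1B were at -0.08 ± 0.18 and 0.07 ± 0.16 (adjusted p = 0.849 and 0.838). NF2, the membrane protein merlin that recruits LATS, was at 11.87, 11.72, 11.66 and 11.80 in s1, s3, s4 and s5, all above the Sham range of 11.08 to 11.60, but at 11.11 in s9, and the log2 difference was 0.33 ± 0.16 (adjusted p = 0.282). In the limma fit 0 of 13 genes of the STRIPAK phosphatase and LIM scaffolds, 0 of 19 junction and polarity genes, 0 of 15 genes of YAP, TAZ and TEAD with their cofactors and 0 of 16 genes of YAP turnover passed, while 2, 2, 5 and 4 had an unadjusted p under 0.05, where 20.3% of all genes did. Their median log2 differences were 0.03, -0.11, -0.02 and 0.06. For RUNX1 among the cofactors and NLK among the turnover genes, every CTEPH library lay above every Sham library, as for 3.7% of all genes. Both are named after their values were seen. Their log2 differences were 0.88 and 0.48 (limma, adjusted p = 0.0523 and 0.0829). Without s1 there were 2 calls among the cofactors, and without s9 there was 1 call among the cofactors and 1 among the turnover genes. With library weights there were 1 and 3.

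Known targets of YAP and TEAD changed in both directions. Of 19 measured genes of a target signature, AMOTL2 and LATS2 among them, 3 rose and 1 fell, where 4.62% of all genes were called. Like the other lists, the signature was written with earlier results of these data known. There were 10 positive and 9 negative differences, with a median of 0.05. Without regard to sign the median size was 0.446, against 0.25 over all genes. CCN2, a secreted matrix regulator and the classical target, was at 12.64 in s1, 12.45 in s3, 15.36 in s4, 13.04 in s5 and 12.71 in s9, and at 10.18 to 11.98 in Sham. All CTEPH libraries exceeded all Sham libraries, s4 by the most, and the gene rose by 2.33 ± 0.50 on the log2 scale (adjusted p = 0.0198), or by 1.80 without s4. TGFB2, a growth factor of the TGF-beta family, was at 8.06 in s1, 9.06 in s3, 8.62 in s4, 9.02 in s5 and 8.07 in s9 and at 7.36 to 7.95 in Sham, and rose by 0.95 ± 0.24 (adjusted p = 0.0442). ANKRD1, the stretch-responsive titin-associated protein, was at 17.70 to 18.21 in s1, s3, s4 and s5, above the Sham range of 15.39 to 16.90, while s9 at 16.17 lay within it, and it rose by 1.46 ± 0.37 (adjusted p = 0.044).

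CRIM1, a membrane protein that binds growth factors, fell by 0.70 ± 0.18 (adjusted p = 0.0405), with 9.50 to 10.39 in CTEPH and 10.39 to 10.85 in Sham. CCN1, the close relative of CCN2, was at 12.08 in s1, 9.31 in s3, 14.28 in s4, 11.20 in s5 and 9.90 in s9, and at 9.74 to 11.27 in Sham. Its highest and lowest libraries were both CTEPH, and the difference was 0.95 ± 0.72 (adjusted p = 0.504). The receptor kinase AXL was at -0.52 ± 0.25 and the phosphatase PTPN14 at 0.11 ± 0.18 (adjusted p = 0.27 and 0.781). CCN2 lost its call without s6 or s7 (adjusted p = 0.0531 and 0.0521), ANKRD1 without any library but s7 and s9, TGFB2 without any but s1 and s9, and CRIM1 without any but s9, with adjusted p of up to 0.108. Fibroblasts are a known source of CCN2. Their markers had 0 calls among 8 (limma), where 4.62% of all genes were called. Under an unadjusted p of 0.05 were 2 of the 8, where 20.3% of all genes were. Of these, DPT had a higher and PDGFRA a lower mean in CTEPH. The level of the fibroblast markers was -0.401 to 0.476 in CTEPH and -0.371 to 0.236 in Sham, highest in s4. Library s4 was also highest for smooth muscle and pericyte markers (0.483) and for epicardial and mesothelial markers (1.544). The part of these cell types in the CCN2 rise was not tested.

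**Figure D5:**
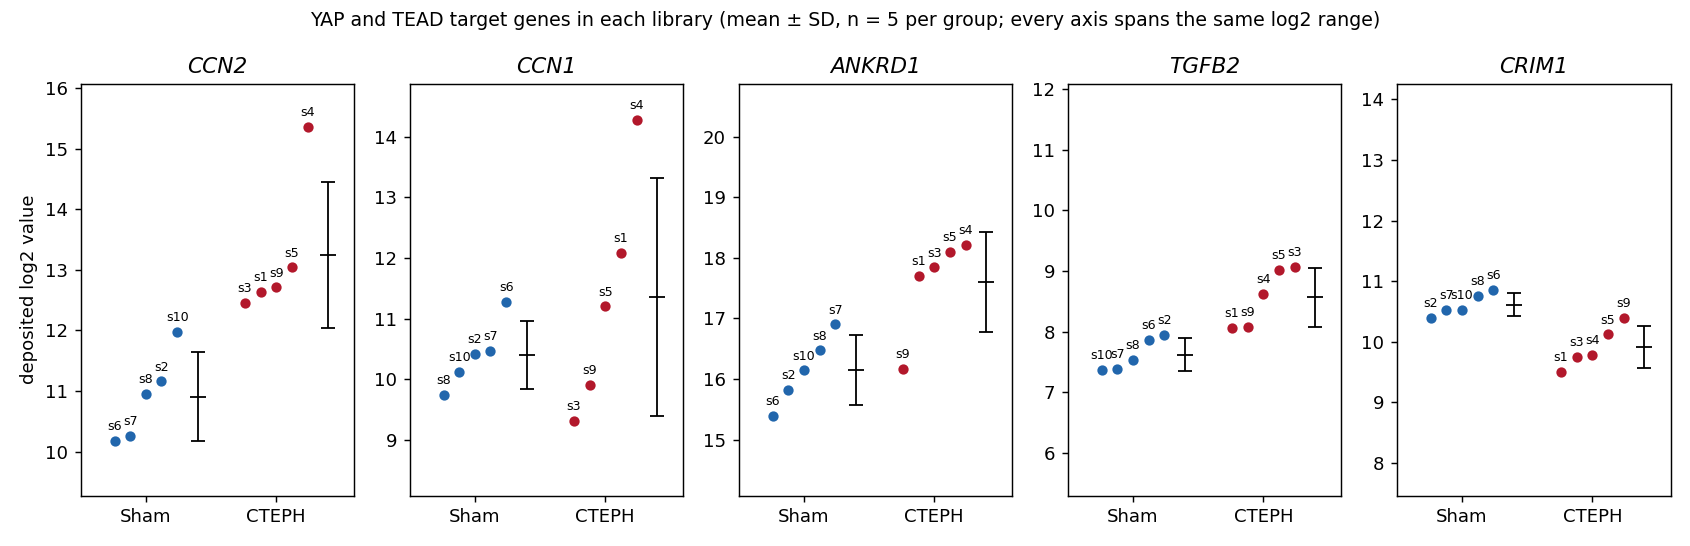
Deposited log2 value (vertical axis, log2) of 5 YAP and TEAD targets in each library, Sham in blue and CTEPH in red, ordered by value, with mean ± SD at the side. CCN2 and TGFB2 lie higher and CRIM1 lower in all 5 CTEPH libraries, ANKRD1 is higher in all but s9, and CCN1 reaches from 9.31 to 14.28 within CTEPH.

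Over all pathway lists together, 10 of 114 measured genes outside the set were called, 8 higher and 2 lower, where 4.62% of all genes were called. Their median log2 difference over the 114 was 0.03. The count of calls was 4 without s2, s3, s4, s6, s7, s8 or s10 and 5 without s5. It was 11 without s1 and 13 without s9.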

How the data were processed

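Bulk RNA of 10 right ventricular biopsies was sequenced. The molecule is labelled polyA RNA while the labels' protocols name a stranded total RNA kit. Per the submitters' processing notes, the authors used bcl2fastq 2.18.12, cutadapt 1.15, FastQC 0.11.5, featureCounts, edgeR 3.36.0 and limma 3.50.0 with build Sscrofa11.1. Aligner, annotation and strand setting are not named there, so reads shared with overlapping or antisense genes cannot be separated. The deposited values are log2 values with nearly the same distribution in every library, which quantile normalization gives, so a change shared by most genes cannot appear. Low values equal quantile means of log2(2k + 1) for whole counts k, to within 5e-10 in the lowest 20% of values; relative depth is the median count ratio over 2475 genes.

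Symbols were matched by Ensembl identifier (12378 genes matched, 3260 did not), and coordinates by symbol from RefSeq. The groups were compared over all genes of the table with limma 3.58.1 in R 4.3.3, with an intensity trend, no covariate, a two-sided test and Benjamini-Hochberg adjustment. Relatives were compared by two-sided exact permutation of all assignments of libraries to groups. The members and lists were chosen with earlier results of these data known. Named genes are the 10 members, 14 fixed pathway genes and up to 6 called genes with the smallest p per list; RMS neighbours are the 3 nearest genes. One of the pathway lists is counted in the total over all lists but is not reported here by itself.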

Additional observations from a re-analysis of the deposited data

Results flagged for a closer look

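In groups of 5, a library was singled out when its gap to the nearest other library exceeded 0.71 of the range of its group (Dixon's test). Of 74 groups examined (32 genes and 5 differences, 2 groups each), 7 were singled out, and chance gives about 1 in 20. Among the 10 genes of the set this held once: TEAD3 in CTEPH library s9, at 10.19, lay 0.65 below the next library. NF2 in CTEPH library s9 was at 11.11, and ANKRD1 in CTEPH library s9 at 16.17, both below the other CTEPH libraries. CCN2 in CTEPH library s4 was at 15.36, which is 2.32 above the next. MAP4K2 in CTEPH library s5 was at 7.95. In Sham, VGLL3 was at 5.54 in library s8 and DIAPH3 at 3.98 in library s10.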

How the results depend on the processing

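None of the 10 genes passed in any of 17 alternatives (other variance priors, library weights, 2 other scalings, the lowest 25% of genes left out, a test against 1.5-fold, and each library left out). The lowest adjusted p was 0.0583, for TEAD4 with library weights. A gene that failed the main test could not pass against 1.5-fold. Other variance priors, leaving out the lowest 25% of genes and the 1.5-fold test keep the log2 difference, so its sign was fixed there. In 163 of 170 refits, these included, the sign was kept, and 7 genes kept it in all. The exceptions were YAP1 (-0.017 without s9; leave-one-out range -0.017 to 0.16), TEAD1 (0.08 without s2, 0.15 without s3, 0.04 without s9; range -0.29 to 0.15) and TEAD3 (0.027 with library weights, 0.13 without s9, 0.03 without s10; range -0.10 to 0.13). By the unadjusted exact permutation test, WWTR1 (0.35, p = 0.0397) and TEAD4 (0.60, p = 0.0238) fell under 0.05. TEAD4 minus TEAD3 ranged from 0.48 to 0.74 without single libraries, and TEAD3 minus TEAD1 from -0.21 to 0.25, with -0.16 without s2, -0.21 without s3 and -0.01 without s4. Among pathway genes that did not pass, the sign turned for STK4 (-0.067 to 0.13 without single libraries, negative without s5 or s7), MOB1A (-0.195 to 0.019, positive without s1, s3 or s8), MOB1B (-0.023 to 0.173, negative without s5) and VGLL3 (-0.501 to 0.10, positive without s3).

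Calls over all genes numbered 723, 1269 with library weights, 127 against 1.5-fold and 401 to 961 without single libraries. Calls of target genes and others in the pathway lists outside the set numbered 10, 4 without the intensity trend, 5 with scaling to cardiomyocyte markers, 1 against 1.5-fold and 4 to 13 without single libraries. The cause was not tested. No paired analysis was possible because each library number occurs once, so the groups share none. Total depth is not known from log2 values, and precision is limited by 5 pigs per group.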
